A study of Mus musculus with 51 samples.

Results

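Kinesins and dyneins are the proteins that move cargo along microtubules, the polymers that paclitaxel (PTX), a chemotherapy drug, stabilises. The genes described here are the motor genes of the mouse as the count tables name them: every symbol that starts with Kif or Klc followed by a digit, or with Dync or Dynl. The tables list 59 such symbols among 22609 genes, and 52 of them reached 10 counts in at least 3 libraries and are called motors below. Dynlrb2, with 10 or more counts in 21 libraries, and Kif6, in 29, stood nearest to that limit from inside. The 7 symbols outside it were Dynlt1b, Dynlt1c, Dynlt1e, Dynlt1f, Kif12, Kif2b and Kif4b, none of which passed 5 counts in any library. The copies of Dynlt1 are nearly identical in sequence, so the level of Dynlt1a, the copy that was counted, is uncertain.

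RNA was sequenced from the dorsal root ganglia (DRG, levels L3 to L5, where the cell bodies of sensory neurons lie), from hind paw punch biopsies (skin with its nerve endings and underlying tissue) and from lumbar spinal cord of male C57 mice aged 8 to 12 weeks. PTX was given into the abdomen at 2 mg/kg in 2 injections a day apart, and the controls are labelled vehicle. DRG and paw each had 15 libraries in 5 groups of 3: vehicle at day 2 and PTX at days 2, 7, 22 and 35. As no later vehicle group was analysed here, drug and day cannot be told apart at days 7, 22 and 35 in these tissues. Spinal cord had 21 libraries under 2 tissue names. Set A, named spinal cord, held vehicle and PTX at days 1 and 7, and its PTX titles carry the word ipsi while its vehicle titles say control. Set B, named spine, held PTX at days 1, 22 and 35 and no vehicle. Whether replicate libraries are different animals is not in the labels, so the p-values below measure the spread between libraries, which may be technical.

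Kinesins mostly walk toward the plus ends of microtubules, which point away from the cell body in axons, and cytoplasmic dynein walks back toward the minus ends. In sensory neurons, whose axons run from the ganglion to the skin and into the cord, kinesin-1 (Kif5 heavy chains with Klc light chains), kinesin-2 (Kif3, Kif17) and kinesin-3 (Kif1, Kif13, Kif16) carry vesicles, mitochondria and cytoskeletal parts outward, and dynein 1 returns endosomes and trophic signals. Another set of kinesins builds and splits the mitotic spindle and is made mainly in dividing cells, while dynein 2 and several kinesins work in cilia.

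Between 13346971 and 30247230 reads per library fell in genes. Levels are given in CPM, counts scaled to the gene reads of a library, and are compared between samples and not between genes. The tissue labels held: Scn10a, a sodium channel of pain-sensing neurons, lay between 685 and 1300 CPM in DRG, Krt14, an epidermal keratin, between 1640 and 3010 in paw, and Mog, a myelin gene of oligodendrocytes, between 59.3 and 327 in cord. Of the 6 cord libraries of set A at day 1, however, 5 also held sensory neuron transcripts. Scn10a read 754, 168 and 303 CPM in the PTX replicates and 0.383, 245 and 222 in the vehicle replicates, against 0.109 to 1.53 in the other 15 cord libraries. The tissue counts and PTX day 7 of set A are therefore given with and without them, and comparisons between days or sets that need day 1 are given with the mean of the sensory neuron genes as a covariate. The day 35 libraries of DRG and paw and all of set B also came in count tables with another style of summary lines, which cannot be told apart from day 35 in DRG and paw.

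Of the 52 motors 11 are mitotic kinesins, and the promoters were searched for motifs known from cell cycle genes. Promoter sequences from RefSeq (build GRCm38.p6; 250 bases before to 50 after the annotated start, 300 in all) matched 41 of the motors, with 47 promoters. Many genes of late cell cycle carry the letters TTTGAA, known as the cell cycle genes homology region and bound by the complexes that shut these genes off in resting cells, and CCAAT, bound by NF-Y. TTTGAA, searched on both strands, was found in 9 of 10 promoters of mitotic kinesins (90%), in 3 of the 37 promoters of the other motors (8.11%) and in 17.9% of all 32851 promoters of the table. The exception among the mitotic kinesins was Kif18a, and the 3 other motors were Kif1a, Kif26b and Kif27. Within 30 bases of the start, a window chosen after the positions were seen, TTTGAA stood in 7 of the 10 (70%), in 1 of the 37 (2.7%) and in 3.14% of all promoters. CCAAT was less selective, at 60% of the mitotic kinesins, 32.4% of the other motors and 37.4% of all promoters, and the related letters TTTAAA stood in 20%, 5.41% and 13.2%. These matches describe the letters only, and no binding was measured.

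The promoters of 4 mitotic kinesins are shown to place the motif, with Kif18a, which lacks it, and Kif3c, a kinesin-2 gene of neurons, for contrast. Capitals mark TTTGAA and CCAAT on either strand, and each sequence is read 5′ to 3′ on the gene's strand, plus for all but Kif23. The positions are chrX:100625815-100626114 for Kif4, chr19:37376132-37376431 for Kif11, chr19:34922108-34922407 for Kif20b, chr9:61946750-61947049 for Kif23, chr2:109280488-109280787 for Kif18a and chr12:3364882-3365181 for Kif3c.
Kif4: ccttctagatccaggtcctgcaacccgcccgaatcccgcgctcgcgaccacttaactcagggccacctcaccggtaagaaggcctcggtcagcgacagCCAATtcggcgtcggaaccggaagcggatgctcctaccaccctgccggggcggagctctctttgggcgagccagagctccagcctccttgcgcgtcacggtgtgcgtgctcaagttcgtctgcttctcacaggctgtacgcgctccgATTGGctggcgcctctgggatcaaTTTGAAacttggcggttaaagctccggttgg
Kif11: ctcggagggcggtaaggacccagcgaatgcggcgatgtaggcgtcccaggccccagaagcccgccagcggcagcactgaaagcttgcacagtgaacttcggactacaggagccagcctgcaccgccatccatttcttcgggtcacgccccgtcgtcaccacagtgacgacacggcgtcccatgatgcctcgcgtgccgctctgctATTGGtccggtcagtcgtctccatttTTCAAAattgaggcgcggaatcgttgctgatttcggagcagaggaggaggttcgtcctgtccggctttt
Kif20b: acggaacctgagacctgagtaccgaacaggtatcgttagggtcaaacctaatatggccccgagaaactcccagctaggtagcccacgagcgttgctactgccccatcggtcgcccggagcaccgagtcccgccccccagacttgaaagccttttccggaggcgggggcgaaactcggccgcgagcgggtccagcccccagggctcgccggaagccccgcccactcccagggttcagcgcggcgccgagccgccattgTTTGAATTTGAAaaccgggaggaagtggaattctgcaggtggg
Kif23: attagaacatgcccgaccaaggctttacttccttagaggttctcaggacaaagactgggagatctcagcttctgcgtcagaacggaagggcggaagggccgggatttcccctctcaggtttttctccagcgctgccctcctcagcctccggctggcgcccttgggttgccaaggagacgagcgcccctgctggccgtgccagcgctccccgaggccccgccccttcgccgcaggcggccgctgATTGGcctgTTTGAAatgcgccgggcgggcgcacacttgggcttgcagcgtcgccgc
Kif18a: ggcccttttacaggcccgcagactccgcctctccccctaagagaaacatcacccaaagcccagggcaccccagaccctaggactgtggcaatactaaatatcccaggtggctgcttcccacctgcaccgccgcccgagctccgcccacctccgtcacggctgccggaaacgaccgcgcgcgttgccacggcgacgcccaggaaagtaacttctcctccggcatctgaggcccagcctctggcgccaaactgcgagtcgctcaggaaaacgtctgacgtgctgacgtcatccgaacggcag
Kif3c: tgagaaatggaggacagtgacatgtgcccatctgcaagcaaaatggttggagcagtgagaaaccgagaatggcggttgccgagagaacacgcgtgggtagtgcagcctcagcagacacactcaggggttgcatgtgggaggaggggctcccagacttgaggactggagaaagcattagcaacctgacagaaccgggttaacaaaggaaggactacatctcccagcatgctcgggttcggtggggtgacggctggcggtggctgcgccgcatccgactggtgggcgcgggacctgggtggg
In Kif4 the TTTGAA begins 20 bases after the start, and in Kif23 3 bases after it. Kif20b carries it at 8 and again at 14 bases after the start, and Kif11 carries its reverse complement 19 bases before it. The GC content of the 6 promoters lay between 59.3% and 65%, so the AT-rich motif stood in GC-rich surroundings.

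In vehicle libraries the kinesin-2 and dynein 1 genes, Kif5a, Kif5c and Kif1a were higher in DRG and in cord than in paw, and all 11 mitotic kinesins were lower in both than in paw. The kinesin-3 genes were split. The widest gaps between DRG and cord were those of Dynlrb2 and Kif6, both higher in cord. Between DRG and paw 44 of the 52 motors passed edgeR's quasi-likelihood test at a Benjamini-Hochberg (BH) adjusted p of 0.05, with 24 higher in DRG and 20 lower, where 80.2% of all 16391 genes passed (41% higher, 39.2% lower). Cord and paw differed in 48 motors (28 higher in cord, 20 lower; 84.1% of all genes, 43.7% higher and 40.4% lower), and DRG and cord in 29 (20 higher in DRG, 9 lower; 62.1% of all genes, 30.7% higher and 31.3% lower). Counted in both directions together, these shares lie near those of all genes, so the motors did not stand out by how many differed. By direction they were less even than all genes between DRG and cord, with 20 higher in DRG and 9 lower, which was not tested. With only the day 7 vehicle libraries for cord, 30 motors differed between DRG and cord, 24 of them shared with the first count, and 48 between cord and paw, all 48 shared. In that count the neuronal heavy chain Kif5a was lower in DRG than in cord (−0.53, edgeR BH-adjusted p = 0.0146), while Kif5b, Kif1a and Kif1b no longer passed. A lower level in a bulk sample can mean fewer cells of a type or less RNA per cell, and these cannot be told apart here.

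**Figure D1:**
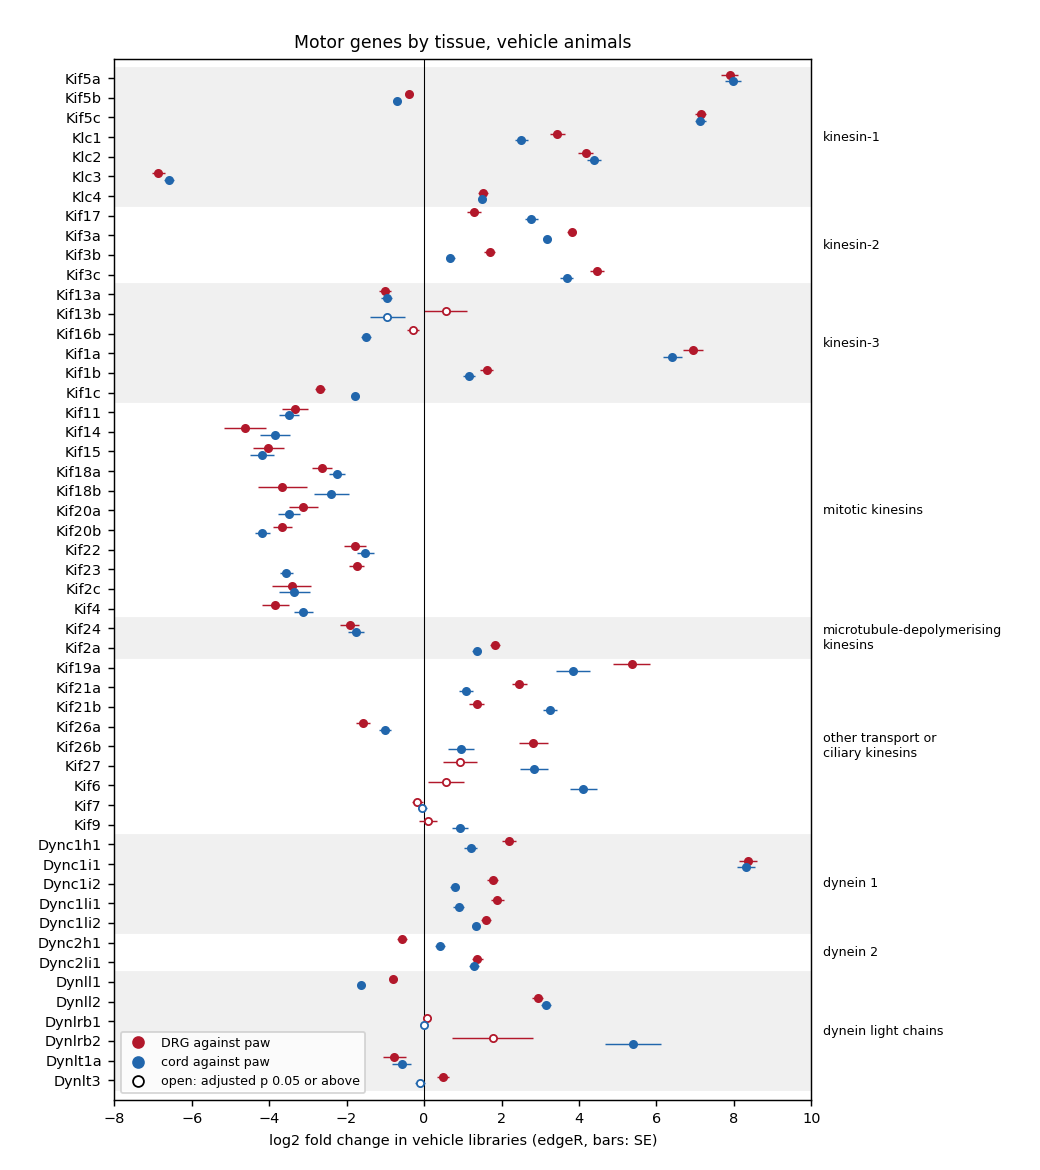
Log2 fold change of each of the 52 motors in DRG over paw (red) and cord over paw (blue) in vehicle libraries, with bars for the standard error, ordered by role; open circles did not pass edgeR's test. The 5 dynein 1 genes and 4 kinesin-2 genes lie to the right of 0, and all 11 mitotic kinesins lie to the left.

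Among the kinesin-1 genes, 5 of 7 were higher in DRG than in paw and 2 were lower. The neuronal heavy chain Kif5a read 1452, 2044 and 2206 CPM in DRG and 8.89, 8.56 and 7.42 in paw, and between 1540 and 3240 (median 2010) over the 6 vehicle cord libraries. Kif5c, the other neuronal heavy chain, read 589.9, 626 and 662 in DRG, 4.38, 5.29 and 4.01 in paw and between 591 and 709 (median 661) in cord. For both genes every nervous tissue library lay far above every paw library, with log2 fold changes of DRG over paw of 7.89 ± 0.22 and 7.15 ± 0.14 (estimate ± SE; edgeR BH-adjusted p = 1.05e-11 and 1.69e-12). Kif5b, the heavy chain of most cell types, read 221, 236 and 243 in DRG, 291, 306 and 354 in paw and between 187 and 223 (median 194) in cord. It was the kinesin-1 heavy chain higher in paw, by a small step that left the groups apart (−0.39 ± 0.11, edgeR BH-adjusted p = 0.00426). The light chain Klc3 stood opposite to the rest of its family, at 1.33, 1.096 and 0.952 CPM in DRG, 126, 133 and 150.2 in paw and between 1.13 and 1.88 (median 1.39) in cord. Its paw libraries were all high and did not overlap the others (−6.87 ± 0.17, edgeR BH-adjusted p = 4.33e-12), while the light chains Klc1, Klc2 and Klc4 were higher in DRG by 3.44 ± 0.19, 4.17 ± 0.2 and 1.52 ± 0.13.

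All 4 kinesin-2 genes were higher in DRG than in paw. Kif3c, which pairs with Kif3a mainly in neurons, read 342, 456 and 462 CPM in DRG, 21.1, 22.8 and 15.6 in paw and between 210 and 313 (median 250) in cord. Kif3a, the shared subunit of cilia and axon transport, read 253, 286 and 297, 20.8, 20.1 and 20.7 and between 169 and 199 (median 191) in the same order of tissues. In both genes the order was DRG, then cord, then paw, with no overlap between tissues (DRG over paw 4.46 ± 0.18 and 3.81 ± 0.11). Kif3b, partner of Kif3a in cilia, had the same order with smaller steps, at 97.9, 123 and 120.4, 36.4, 32.2 and 40.3 and between 51.4 and 67.2 (median 60.8). Kif17, a motor of dendrites and cilia, broke it: it read 4.84, 3.33 and 3.57 in DRG, 2.04, 1.55 and 1.43 in paw and between 9.55 and 14 (median 11.7) in cord, highest in cord. Its log2 fold change of DRG over cord was −1.49 ± 0.15 (edgeR BH-adjusted p = 4.67e-06).

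The 6 kinesin-3 genes were split, with 2 higher in DRG than in paw, 2 lower and 2 not passing. Kif1a, which hauls synaptic vesicle precursors and dense core vesicles, read 1802, 2854 and 2913 CPM in DRG, 23.1, 24.2 and 16.7 in paw and between 1300 and 2640 (median 1740) in cord. Kif1b, which carries vesicle precursors and mitochondria, read 956, 1180 and 1242, 434, 425 and 286 and between 700 and 1100 (median 847). Both were highest in DRG and lowest in paw, but the gap to paw was far wider for Kif1a (6.94 ± 0.26) than for Kif1b (1.62 ± 0.17), and their DRG and cord libraries overlapped. Kif1c, a vesicle motor of many cell types, read 113, 145 and 113 in DRG, 838, 825 and 809.9 in paw and between 202 and 278 (median 255) in cord. Kif13a, a motor of endosomes and melanosomes, read 44.4, 66.6 and 61.2, 135, 127 and 99.3 and between 53.6 and 81.1 (median 59). Paw was the high tissue for these genes (DRG over paw −2.69 ± 0.12 and −1.01 ± 0.16), and for Kif13a the nervous tissues overlapped. Kif16b, of early endosomes, and Kif13b did not pass between DRG and paw.

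All 11 mitotic kinesins were lower in DRG than in paw (log2 fold changes −4.63 to −1.74) and lower in cord than in paw (−4.2 to −1.52). Kif14, which works in the final separation of daughter cells, read 0.284, 0.457 and 0.1904 CPM in DRG, 7.22, 7.41 and 9.72 in paw and between 0.232 and 1.55 (median 0.377) in cord. Kif15, which holds the spindle bipolar, read 0.427, 0.776 and 0.666, 8.71, 9.48 and 13.6 and between 0.142 and 1.88 (median 0.477). The paw libraries stood above every other library in both, and the nervous tissues overlapped. At the other end, Kif22, a chromokinesin, read 2.89, 2.24 and 2.05 in DRG, 9.51, 7.82 and 8.39 in paw and between 1.86 and 6.15 (median 2.52) in cord, and Kif23, a cytokinesis motor, read 6.31, 5.12 and 6.71, 21.2, 19.8 and 21.9 and between 0.849 and 3.9 (median 1.71). Kif23 was the 1 mitotic kinesin of the 11 that differed between DRG and cord (1.82 ± 0.18, edgeR BH-adjusted p = 3.8e-06), each DRG library lying above each cord library. The depolymerising kinesins divided by tissue. Kif24, which acts at centrioles, read 0.854, 1.14 and 0.9995 in DRG, 3.33, 3.68 and 4.701 in paw and between 0.928 and 1.45 (median 1.13) in cord, so paw was high (−1.92 ± 0.25). Kif2a, which trims neuronal and spindle microtubules, read 90.2, 93.6 and 106, 24.7, 28.97 and 30.6 and between 64.1 and 79.8 (median 75.4), so paw was low (1.83 ± 0.12).

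Of the 9 other transport or ciliary kinesins, 3 were higher in DRG than in cord and 5 lower. Kif6, a kinesin-9 of motile cilia, read 0.522, 0.365 and 0.286 CPM in DRG, 0.247, 0.402 and 0.184 in paw and between 3.47 and 6.66 (median 4.98) in cord. The cord libraries stood alone here (DRG over cord −3.55 ± 0.33, edgeR BH-adjusted p = 2.04e-06), as they did for the dynein light chain Dynlrb2 (−3.62 ± 0.57) and the cilia kinesin Kif27 (−1.93 ± 0.31). Foxj1, the master regulator of motile cilia, was also highest in cord, at 43.5 to 89.5 CPM against 17.5 to 35.8 in DRG and at most 0.824 in paw. Kif19a, a kinesin-8 that limits the length of motile cilia, went the other way and read 144, 166 and 142 in DRG, 4.75, 4.42 and 2.397 in paw and between 17.4 and 122 (median 45.2) in cord. Its fold change of DRG over paw was 5.36 ± 0.48, and within cord it spread widely, as described at the end. Kif26b, a kinesin-11, read 11.4, 24.6 and 21.2 in DRG, 2.41, 2.41 and 3.46 in paw and between 2.49 and 7.49 (median 5.91) in cord, with DRG high (2.82 ± 0.38), while its relative Kif26a was high in paw at 24.3, 32.4 and 22.6, against 9.48, 9.18 and 7.14 in DRG and between 10.3 and 14.4 (median 14.4) in cord (−1.57 ± 0.18). Kif21b, a kinesin-4 of neurons and lymphocytes, read 19.5, 34.6 and 29.1 in DRG, 12.2, 9.71 and 11.7 in paw and between 66.7 and 174 (median 111) in cord, so cord was high and no tissues overlapped (DRG over cord −1.89 ± 0.18). Its relative Kif21a, which restrains microtubule growth, was by contrast higher in DRG than in cord (1.38 ± 0.16). Kif7, the kinesin of Hedgehog signalling, did not pass between any pair of tissues.

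All 5 dynein 1 genes were higher in DRG and in cord than in paw. The neuronal intermediate chain Dync1i1 read 223, 201 and 214 CPM in DRG, 1.05, 0.632 and 0.369 in paw and between 180 and 243 (median 215) in cord, the widest gap of any motor between DRG and paw (8.37 ± 0.24, edgeR BH-adjusted p = 1.43e-11). The heavy chain Dync1h1, the motor itself, read 1199, 1598 and 1673, 333, 352 and 329.9 and between 585 and 1030 (median 793). Dync1i2, the intermediate chain of most cell types, read 423, 387 and 454, 124, 120.2 and 138 and between 184 and 300 (median 203), and the light intermediate chain Dync1li2 read 334, 398 and 425, 139, 131 and 125 and between 298 and 415 (median 322). For each of these 3 every paw library was below every DRG and cord library, with gaps of 2.19 ± 0.18, 1.77 ± 0.14 and 1.6 ± 0.12 between DRG and paw. Of the dynein 2 genes, which return material from cilia, the light intermediate chain Dync2li1 read 15.98, 16.5 and 14.8 in DRG, 6.54, 5.75 and 6.59 in paw and between 12.7 and 21.8 (median 15.2) in cord. The heavy chain Dync2h1 read 12.1, 15.02 and 14.6, 18.9, 19.6 and 25.4 and between 26.4 and 32.4 (median 28.6). They did not share a pattern: paw was lowest for Dync2li1, and DRG was lowest for Dync2h1 (−0.57 ± 0.14 against paw, −0.98 ± 0.13 against cord).

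The dynein light chains, which also serve other protein complexes, included motors at opposite ends of the tissue order. Dynll2 read 982, 782 and 874 CPM in DRG, 135, 126 and 96.9 in paw and between 952 and 1240 (median 1100) in cord, and its close relative Dynll1 read 119, 104 and 106, 193, 195 and 205 and between 57.8 and 76.5 (median 63.5). Paw was thus the low tissue for Dynll2 (DRG over paw 2.94 ± 0.14) and the high tissue for Dynll1 (−0.8 ± 0.09), with no overlap. Dynlt3 read 364, 339 and 421 in DRG, 251, 250.5 and 328 in paw and between 226 and 320 (median 244) in cord, and Dynlt1a 0.664, 0.776 and 0.857, 1.24, 1.03 and 1.75 and between 0.685 and 1.35 (median 0.901). DRG was the high tissue for Dynlt3 and paw for Dynlt1a, though for both the cord and paw libraries overlapped. Dynlt3 passed in DRG against paw (0.49 ± 0.15, edgeR BH-adjusted p = 0.0112), but not in 2 of the 6 fits with 1 library left out (0.39 to 0.62). Dynlt1a passed against paw in DRG (−0.77, edgeR BH-adjusted p = 0.0278) and in cord (−0.58, 0.0399), but it did not pass in DRG without paw replicate 3 or either of DRG replicates 1 and 2. In cord it did not pass without any one of paw replicate 3, vehicle replicates 1 and 2 of day 7 and vehicle replicates 1 and 2 of day 1, or with DESeq2 (0.0553). Dynlrb1 was nearly level, with means of 144 ± 13.6, 142 ± 12.3 and 144 ± 13.8 CPM (SD, n = 3, 3 and 6) in DRG, paw and cord, and passed between no pair.

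Partners of the motors were counted from a pair of lists. Of 29 genes of dynactin and other dynein regulators, 19 were higher in DRG than in paw and 7 lower, and of 27 kinesin cargo adaptors and motors outside the naming rule 17 were higher and 7 lower, beside 41% higher and 39.2% lower among all genes. Their median log2 fold changes were 0.87 and 1.33, beside 0.56 for the motors and 0.03 for all genes. The 3 dynein regulators with the smallest p were Mapk8ip3, an adaptor of axonal transport, at 3.62 ± 0.13, and Hook1 and Hook2, which link dynein to its cargo, at −4.19 ± 0.16 and −2.6 ± 0.11. On the kinesin side they were Fez1, a kinesin-1 adaptor, at 5.68 ± 0.11, the scaffold Mapk8ip1 at 4.76 ± 0.14 and Ppfia2, a synaptic liprin, at 6.98 ± 0.21. Between cord and paw the counts were 19 higher and 8 lower, and 19 higher and 6 lower, beside 43.7% higher and 40.4% lower among all genes.

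PTX produced no change in a DRG motor that passed edgeR's test at any day. At day 2 none of 51 motors passed (background 0% of 15333 genes) and 1 had an unadjusted p under 0.05, against 7.6% of all genes. At day 7 none passed (background 0.157%) and 13 were under 0.05, 8 higher and 5 lower, or 25.5% of motors against 22.4% of all genes. At day 22 none passed (background 0%) and 2 were under 0.05 (8.85% of all genes), and at day 35 none passed (background 0.209%) and 5 were (13%). DESeq2 called 0, 2, 0 and 0 motors at these days, those of day 7 being Kif5b and Klc2. The share of all genes called by DESeq2 is not given here or below, so its counts of motors stand without a background. No share of motors under 0.05 was far above that of all genes.

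Kif5b and Klc2, a heavy and a light chain of kinesin-1, had the smallest p in DRG and measured on opposite sides of vehicle at day 7. Kif5b read 221, 236 and 243 CPM in vehicle, 271, 256 and 281 at PTX day 2, 364, 301 and 295 at day 7, 246, 261 and 221 at day 22 and 274, 247 and 246 at day 35. All libraries of days 2, 7 and 35 lay above all vehicle libraries, and those of day 22 overlapped them. The days share the same vehicle libraries, and the share of all genes without overlap was not counted. The log2 fold change at day 7 was 0.41 ± 0.09 (edgeR BH-adjusted p = 0.0661), and at day 2 it was 0.19 ± 0.09 (0.642). The day 7 adjusted p ran from 0.00268 (DESeq2) to 0.341 (only the groups compared) over the alternatives, with 0.0483 when the replicate number was a block. Klc2 read 470.2, 374 and 361 in vehicle, 365, 348 and 329.6 at day 2, 327, 292 and 357 at day 7, 350.5, 342 and 353 at day 22 and 359, 340.5 and 362 at day 35. Day 7 lay below all vehicle libraries by a small margin and vehicle replicate 1 stood above the rest (−0.35 ± 0.1, edgeR BH-adjusted p = 0.0969; 0.0223 with DESeq2, 0.395 with only the groups compared). Without PTX day 7 replicate 3, 4 motors passed at day 7: Dync1i1, Kif5b, Klc1 and Klc2. The light chains Klc1 and Klc4 also measured below vehicle at that day, at −0.25 ± 0.09 and −0.24 ± 0.08, without passing in the full set.

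At day 7 all 11 mitotic kinesins had positive fold changes in DRG, 5 of them with an unadjusted p under 0.05 and none passing, with a median of 0.8 (0.01 to 1.66). Their summed level was 20.2, 44.3 and 20.1 CPM in the PTX replicates and 18, 18.9 and 19.4 in vehicle, so replicate 2 alone stood clearly above vehicle. The spindle motor Kif11 read 3.38, 7.96 and 3.06 at day 7 and 2.61, 3.24 and 3.62 in vehicle, and the chromokinesin Kif4 1.39, 2.69 and 1.33 and 1.23, 0.913 and 0.714. Both were highest in replicate 2, where the proliferation gene Mki67 was also highest, at 23.3 CPM against 6.6 and 6.27 in the other replicates. The 10 genes of the dividing cell list averaged 2.66 on the log2 CPM scale in that replicate and 0.77 and 0.69 in the others. The macrophage list, at 4.86 against 2.46 to 3.39 in vehicle, and the fibroblast list, at 8.75 against 7.42 to 8, were also highest in it. Fat cell genes moved with day 7 as a whole, with list means of 2.13, 2.17 and 1.58 against −1.04, 0.21 and −1.13 in vehicle and sums of 36.5 to 53.5 CPM against 3.43 to 10.9. The part of these lists in the day 7 values was not tested.

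At days 22 and 35 the motors with the smallest p in DRG were Kif24, Klc2, Dynlrb1 and Dync1li2, none of which passed. Kif24 read 1.66, 1.69 and 1.32 CPM at day 22 and 0.854, 1.14 and 0.9995 in vehicle (0.62 ± 0.25, edgeR BH-adjusted p = 0.513), and Klc2 was −0.22 ± 0.1 (0.555). The roadblock light chain Dynlrb1 read 129, 123 and 124 at day 35 and 159.8, 136 and 137 in vehicle (−0.21 ± 0.07, 0.263), and Dync1li2 read 461, 453 and 488 and 334, 398 and 425 (0.27 ± 0.09, 0.277). The groups did not overlap in these 4 comparisons, but the motors were picked by their small p. The share of all genes without overlap was not counted, and each difference was less than a doubling. Among the 4 PTX days themselves no DRG motor passed (background 0.0196%), 3 had an unadjusted p under 0.05 (9.33% of all genes), and DESeq2 called 1, Kif5b. Of the partner lists, no dynactin or dynein regulator passed in DRG at any day, and of the kinesin adaptors Dpysl2, a tubulin-binding cargo adaptor, was lower at day 35 (−0.52 ± 0.09, edgeR BH-adjusted p = 0.037).

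**Figure D2:**
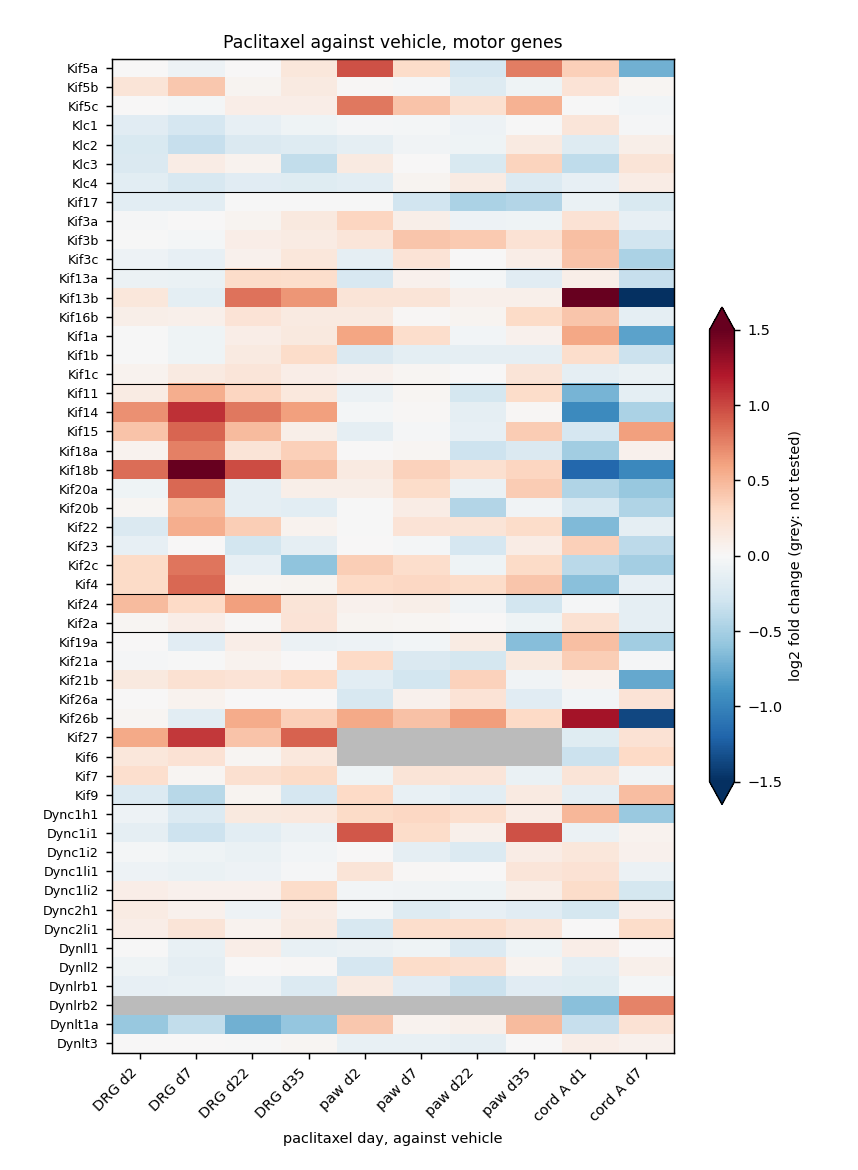
Log2 fold change of PTX over vehicle for each motor (rows, grouped by role) in each comparison with vehicle (columns), with grey where a motor had too few counts to be tested. Colours stop at 1.5 in either direction; Kif13b in cord set A reaches 2.05 at day 1 and −2.12 at day 7.

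No motor of the paw passed edgeR's test after PTX either. Of 49 motors none passed at day 2 (background 0% of 15199 genes), day 7 (0%), day 22 (1.12%) or day 35 (0%). The numbers with an unadjusted p under 0.05 were 2, 2, 4 and 1, below the shares of all genes at each day (7.36%, 13.8%, 18.7% and 5.31%). DESeq2 called 1, 2, 3 and 0 motors. Those were Dync1h1 at days 2, 7 and 22, Kif3b at days 7 and 22, and Dync1i2 at day 22.

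The heavy chain of dynein 1, Dync1h1, measured higher in paw from day 2 to day 22. It read 333, 352 and 329.9 CPM in vehicle, 418, 401 and 419 at day 2, 425, 423 and 449.8 at day 7, 409, 427 and 424 at day 22 and 349, 358 and 349 at day 35. The 9 libraries of days 2 to 22 all lay above the vehicle libraries, and the day 35 libraries overlapped vehicle. Its log2 fold changes were 0.29 ± 0.09, 0.31 ± 0.09 and 0.25 ± 0.09 in the order of the days (BH-adjusted p by edgeR 0.599, 0.163 and 0.165). DESeq2 gave 0.0104, 0.0039 and 0.0255, and the highest adjusted p over the alternatives were 0.995, 0.417 and 0.401. Kif3b, the kinesin-2 subunit of cilia, read 36.4, 32.2 and 40.3 in vehicle, 38.2, 41.7 and 43.2 at day 2, 49.9, 50.4 and 50.04 at day 7, 49.4, 56.9 and 43.3 at day 22 and 42.2, 42.8 and 36.7 at day 35. Days 7 and 22 lay above vehicle without overlap (0.42 ± 0.11 and 0.39 ± 0.11, edgeR BH-adjusted p = 0.128 and 0.0793), and the other days overlapped it. Both motors were picked by their small p, and all days share the same vehicle libraries. The share of all genes without overlap was not counted. Without PTX day 22 replicate 3 Kif3b passed at day 22 (0.0351), and over all alternatives its adjusted p ran from 0.0264 to 0.356. Fibroblast genes were also higher at these days: their list summed to between 4710 and 6280 CPM in vehicle. PTX libraries gave sums between 7250 and 7380 on day 2, between 7460 and 14700 on day 7, between 8580 and 15200 on day 22 and between 5990 and 7640 on day 35. Macrophage genes summed to 130 to 214 CPM in vehicle, 277 to 411 at day 7 and 234 to 502 at day 22, and fat cell genes to 152 to 217 in vehicle and 309 to 546 at day 22. The part of these lists in the motor values was not tested.

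**Figure D3:**
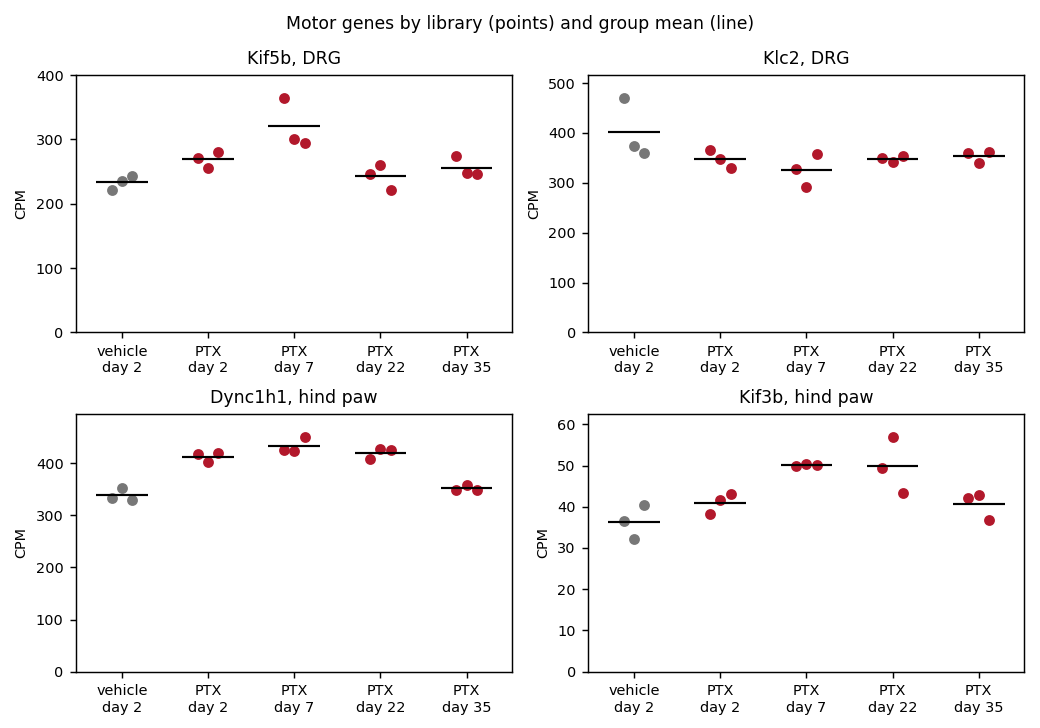
CPM in each library (points) and group mean (line) of the kinesin-1 genes Kif5b and Klc2 in DRG and of Dync1h1 and Kif3b in paw, for vehicle (grey) and PTX (red). Kif5b peaks at day 7, and Dync1h1 lies above vehicle at days 2 to 22 and among it at day 35.

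Other paw motors with small p-values were Kif3a at day 2, Dync1i2 and Dynlrb1 at day 22 and Kif16b at day 35. Kif3a read 24.2, 22.6 and 30.04 CPM against 20.8, 20.1 and 20.7 in vehicle (0.32 ± 0.14, edgeR BH-adjusted p = 0.65), and Kif16b 59.8, 70.9 and 66.1 against 56.4, 53.5 and 58.2 (0.29 ± 0.12, 0.913). The groups did not overlap in either, but both motors were picked by their small p. Dync1i2 and Dynlrb1 measured −0.21 ± 0.08 and −0.32 ± 0.14 at day 22 and had the smallest p among the 4 PTX days, where no paw motor passed (background 0%; 5 under an unadjusted p of 0.05, against 17.9% of all genes; DESeq2 called Dync1i2, Dynlrb1 and Kif3a).

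Kif5a, Kif1a, Kif5c and Dync1i1, chosen after their values were seen, were highest in paw in the same libraries as the sensory neuron genes. In PTX day 2 replicate 3 and day 35 replicate 1, Kif5a read 30.9 and 27.9 CPM, against 6.22 to 14.1 in the other 13 paw libraries. Kif1a read 54.5 and 41.2, Kif5c 14.8 and 11.5 and Dync1i1 2.47 and 2.1 in the same libraries. Their sensory neuron genes were likewise the highest in paw, with list means of 2.61 and 2.17 against −0.86 to 1.4 elsewhere, and Scn10a at 12.7 and 11.8 CPM.

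The effects of PTX in DRG and paw were compared in a joint fit, and no motor differed at day 2 (background 0% of 16304 genes), day 7 (0.196%), day 22 (0.0245%) or day 35 (0.0184%). With an unadjusted p under 0.05 there were 1, 3, 1 and 1 motors (6.06%, 13.7%, 13.2% and 7.44% of all genes), and DESeq2 called none. The 3 of day 7 were Kif3b (−0.46 ± 0.16), Kif5b (0.41 ± 0.16) and Dync1h1 (−0.52 ± 0.2), with edgeR BH-adjusted p of 0.195, 0.23 and 0.233. The sign is positive where the PTX effect was higher in DRG and negative where it was higher in paw.

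In the cord, set A allows PTX to be set against vehicle of the same day. No motor passed at day 1 (background 0% of 15815 genes; 8 of 52 motors had an unadjusted p under 0.05, against 21.5% of all genes; DESeq2 called none). None passed at day 7 either (background 0%; 10 motors under 0.05, against 15.9%; DESeq2 called Kif13b, Kif1a, Kif21b and Kif5a). With only the groups compared in the fit, 7 motors passed at day 7, and without PTX day 1 replicate 2 there were 4 at day 1. The shares of all genes called in these alternatives are not given here. Several neuronal motors measured above vehicle at day 1 and below it at day 7, and 5 motors passed the test of the difference between the days: Kif13b, Kif1a, Kif26b, Kif5a and Kif3c, all lower at day 7 (background 8.76%, with 5.87% lower and 2.9% higher; DESeq2 called 8).

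Kif13b, a vesicle kinesin, had the widest spread. It read 106, 24.8 and 34.6 CPM with PTX and 15.4, 8.07 and 17.6 with vehicle at day 1, and 9.99, 10.3 and 13.8 with PTX and 69.3, 46.4 and 25.3 with vehicle at day 7. The PTX libraries lay above vehicle at day 1 and below it at day 7, without overlap, and vehicle itself was higher at day 7. The effects were 2.05 ± 0.63 and −2.12 ± 0.64 (edgeR BH-adjusted p = 0.165 and 0.126), and their difference was −4.17 ± 0.9 (0.0186). Kif1a read 2601, 1599 and 1992 with PTX and 1299, 1385 and 1534 with vehicle at day 1, and 1398, 1463 and 1486 and 2635, 2636 and 1955 at day 7. The high libraries were again PTX day 1 and vehicle day 7 (0.58 ± 0.23, −0.8 ± 0.23, difference −1.38 ± 0.32, edgeR BH-adjusted p = 0.0218). Kif5a read 2314, 1765 and 1980 and 1543, 1644 and 1617 at day 1, and 1798, 1854 and 1829 and 3245, 2943 and 2383 at day 7. Here vehicle day 7 stood above all other set A libraries, and the difference was −1.08 ± 0.3 (0.0386).

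Kif26b, a kinesin-11, and Kif3c, the neuronal kinesin-2 subunit, followed a similar order. Kif26b read 18.9, 6.01 and 8.61 CPM with PTX and 2.49, 6.35 and 5.48 with vehicle at day 1, and 2.699, 2.31 and 2.81 and 7.49, 6.41 and 5.36 at day 7. Its groups overlapped at day 1 and not at day 7 (difference −2.62 ± 0.63, edgeR BH-adjusted p = 0.0245). Kif3c read 403, 249.8 and 271 and 209.7, 235 and 254 at day 1, and 212, 216 and 217 and 313, 294 and 247 at day 7, with overlap at day 1 only (−0.9 ± 0.25, 0.0387). The count of 5 rested on few libraries. It was 0 without any one of PTX day 1 replicate 1, PTX day 7 replicates 1 or 2 and vehicle day 7 replicate 1. It was 1 without vehicle day 7 replicate 2, 2 without vehicle day 1 replicate 2, 3 without PTX day 7 replicate 3 or vehicle day 1 replicate 1, and 10 without PTX day 1 replicate 2. Of the partner lists, 5 of 29 dynein regulators (2 higher, 3 lower) and 2 of 27 kinesin adaptors (both lower) differed as well.

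The vehicle groups of set A also differed from each other, in 12 motors (5 higher at day 7, 7 lower; background 19.7%, with 8.69% higher and 11% lower). Kif21b read 87.3, 66.7 and 69.1 CPM at day 1 and 168, 174 and 135 at day 7, with every day 7 library above (1.15 ± 0.2, edgeR BH-adjusted p = 0.00426). With PTX at day 7 it read 97.3, 95.05 and 101, between the vehicle groups (−0.77 ± 0.2 against vehicle, 0.104). Kif5a and Kif1a rose by 0.89 ± 0.22 and 0.83 ± 0.23. Mitotic kinesins fell: Kif15 read 1.57, 1.88 and 0.618 at day 1 and 0.282, 0.142 and 0.337 at day 7 (−2.36 ± 0.53, 0.0089), and Kif23 2.91, 3.901 and 2.12 and 1.29, 0.849 and 1.18 (−1.37 ± 0.33, 0.0113). Of the 11 mitotic kinesins all had negative values and 5 passed. Mki67 was high in 2 of the day 1 vehicle libraries, at 16.6 and 27 CPM against 2.66 in the third. The intermediate chain Dync1i2 read 215, 292 and 299.8 at day 1 and 184, 192 and 190.1 at day 7 (−0.46 ± 0.12, 0.0148), with the day 7 libraries below all of day 1. The count was 7 with only the groups compared in the fit, and it fell to 5 without vehicle day 7 replicate 1 and to 4 without vehicle day 7 replicate 2 or vehicle day 1 replicate 2.

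One library property moved with these cord values, the slope of expression on transcript length, in log2 units per doubling of length, which was 0.106, 0.089 and 0.022 in the vehicle day 7 libraries and −0.062, −0.013 and −0.024 in PTX day 7. It was 0.088, −0.006 and 0.019 in PTX day 1 and −0.071, −0.115 and −0.026 in vehicle day 1. Across the 21 cord libraries Kif13b followed it with r = 0.9 and rho = 0.88, and r was 0.87 without the 2 libraries farthest from the median slope. Within set A the values were 0.91 and 0.89 (n = 12) and within set B 0.97 and 0.98 (n = 9). This relation and the 2 further below were chosen after the values were seen, so r and rho are given as a description without a p. With the slope as a covariate, no motor passed for the vehicle days or for the difference of the effects. Kif13b was then −1.02 (edgeR BH-adjusted p = 0.746), Kif1a −0.35, Kif26b −0.96, Kif5a −0.17 and Kif3c −0.12. The slopes of PTX and vehicle did not overlap at either day, nor did those of the vehicle days, so this covariate also takes up group differences. What part the slope has cannot be read from the loss of calls. In DRG too Kif13b was uneven, at 21.7 to 42.65 CPM in 5 libraries from vehicle, day 2 and day 7 and at 76.1 to 153 in the other 10.

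**Figure D4:**
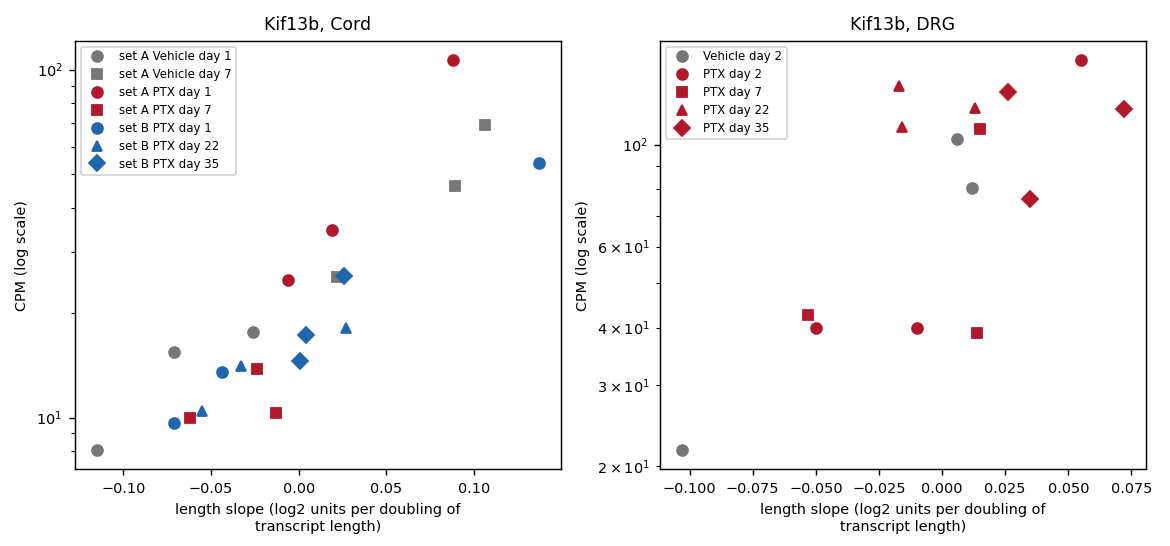
CPM of Kif13b (log scale) against the length slope of each library, in cord (left, 21 libraries) and DRG (right, 15 libraries), with groups by colour and shape. In cord, PTX day 1 replicate 1 of each set and vehicle day 7 replicates 1 and 2 lie at the upper right, and the lowest point, at 8.07 CPM and a slope of −0.115, is vehicle day 1 replicate 2.

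The sensory neuron transcripts in 5 of the 6 day 1 libraries of set A followed the order of the motors only in part. Their list averaged 7.97, 6.53 and 7.25 log2 CPM in PTX day 1 and 1.67, 7.23 and 7.09 in vehicle day 1, against 1.43 to 1.99 in the other cord libraries and 8.35 to 8.71 in DRG. Summed, the list gave 1380 to 3760 CPM in PTX day 1, 108 to 2300 in vehicle day 1 and 100 to 192 in the rest of the cord. Within PTX day 1, replicate 1 was highest and replicate 2 lowest in the list and in Kif13b, Kif1a, Kif5a, Kif26b and Kif3c. Within vehicle day 1, replicate 1 was lowest in the list and in Kif1a, Kif5a, Kif26b and Kif3c, but not in Kif13b. Vehicle day 1 replicates 2 and 3 were high in the list with 8.07 and 17.6 CPM of Kif13b. The vehicle day 7 libraries were low in the list with 25.3 to 69.3 CPM of Kif13b. With this list as a covariate no motor passed for the vehicle days, for the difference of effects or for set B against set A. As the list itself lay far apart between most groups compared there, the covariate also takes up group differences. The loss of calls therefore cannot show what part the list has. Without the day 1 libraries of set A in the fit, PTX against vehicle at day 7 called 0 motors with edgeR's test, as with them.

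Set B held PTX libraries of day 1 under the other tissue name, so the same drug and day can be compared between sets. There 16 motors differed, 6 higher in set B and 10 lower (background 32.9%, with 18.5% higher and 14.4% lower). Dync1i2 read 177, 198 and 189 CPM in set B and 348, 252 and 291 in set A, without overlap (−0.64 ± 0.12, edgeR BH-adjusted p = 0.0015). Kif1c read 283, 279 and 278 and 161, 242 and 195 (0.52 ± 0.11), and the light chain Dynll2 1129, 1078 and 1447 and 850.1, 967 and 904 (0.45 ± 0.11), both higher in set B. Kif21a read 244, 202 and 219 and 492, 296 and 359 (−0.77 ± 0.2) and Kif16b 17.9, 17.2 and 14.9 and 41.1, 21.1 and 25.2 (−0.79 ± 0.21), both lower in set B. The dynein 2 heavy chain Dync2h1 read 31.4, 28.4 and 32.1 and 20.3, 28.2 and 21.3 (0.42 ± 0.11). No group overlapped in these 6 motors, which were picked by their small p, and the share of all genes without overlap was not counted. Dync1i2, Kif21a and Kif16b are also among the motors higher in DRG than in cord, and Kif1c and Dync2h1 among those lower, while Dynll2 passed in neither direction there. With only the groups compared in the fit the count was 0. It was 3 without PTX day 1 replicate 1 of set A, 10 without its replicate 3, 22 without its replicate 2 and 9 without set B replicate 3.

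Within set B no motor passed against day 1, though some fold changes were wide. At day 22 no motor passed against day 1 (background 1.09%; 5 had an unadjusted p under 0.05, against 13.2% of all genes; DESeq2 called none), and at day 35 none passed (background 0.0885%; 0 under 0.05, against 5.22%; DESeq2 called none). Kif23 had the smallest p, at 1.88, 2.49 and 1.61 CPM at day 1, 1.04, 0.711 and 0.939 at day 22 and 2.46, 1.13 and 1.39 at day 35. Day 22 lay below day 1 without overlap (−1.16 ± 0.35, edgeR BH-adjusted p = 0.148). Kif19a had the next smallest p at day 22, and its fold change ran from −2.19 to −0.28 with 1 library left out. Of the 11 mitotic kinesins 9 were negative at day 22 and 1 positive (median −0.68), and 3 of the negative ones had an unadjusted edgeR p under 0.05. Kif13b in set B ranged from 9.66 to 53.7 CPM, the highest being day 1 replicate 1, which was also the library of set B highest in Kif5a, at 3215.

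Kif19a marked another axis of variation in the cord. It read 144, 112 and 134 CPM with PTX and 119, 49.8 and 122 with vehicle at day 1 of set A, 31.7, 12.6 and 25.8 and 40.6, 37.4 and 17.4 at day 7, and 20.8, 133 and 18.6, 14.4, 14.2 and 21.3 and 53.6, 14.1 and 87.96 at days 1, 22 and 35 of set B. The libraries of one group differed by as much as the groups did, as in day 1 of set B, where only replicate 2 was high. DRG held 120 to 178 CPM and paw 1.21 to 4.81, so the highest cord libraries reached DRG levels. Across the 21 cord libraries Kif19a followed the mean of 7 genes of Schwann and satellite glia, the peripheral glia of nerve roots and ganglia, with r = 0.97 and rho = 0.95, and r = 0.97 without the 2 farthest libraries. Within set A, r was 0.99 and rho 0.94 (n = 12), and within set B r was 0.98 and rho 0.93 (n = 9). The gene and the list were paired after their values were seen. Some genes of that list are also made by oligodendrocytes. Prx, a gene of Schwann cells, ranged in cord from 71 to 2400 CPM. The fibroblast list was also high in the libraries high in Kif19a. Its means in set B were 5.12, 7.05 and 5.26 log2 CPM at day 1 and 6.05, 5.09 and 6.67 at day 35. In set A it summed to 1170 to 1900 CPM in PTX and 1010 to 1460 in vehicle at day 1, and to 225 to 460 and 377 to 551 at day 7. The part of either list in the Kif19a values was not tested.

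The mitotic kinesins and the dividing cell list both mark dividing cells, so a relation between them adds little by itself. Across the 15 paw libraries the summed level of the mitotic kinesins followed the mean of the 10 dividing cell genes with r = 0.97 and rho = 0.95. Without the 2 farthest libraries r was 0.95. Mki67 lay between 96.8 and 241 CPM in paw, between 3.27 and 23.3 in DRG and between 1.25 and 27 in cord. No mitotic kinesin passed edgeR's test in any comparison of PTX with vehicle.

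**Figure D5:**
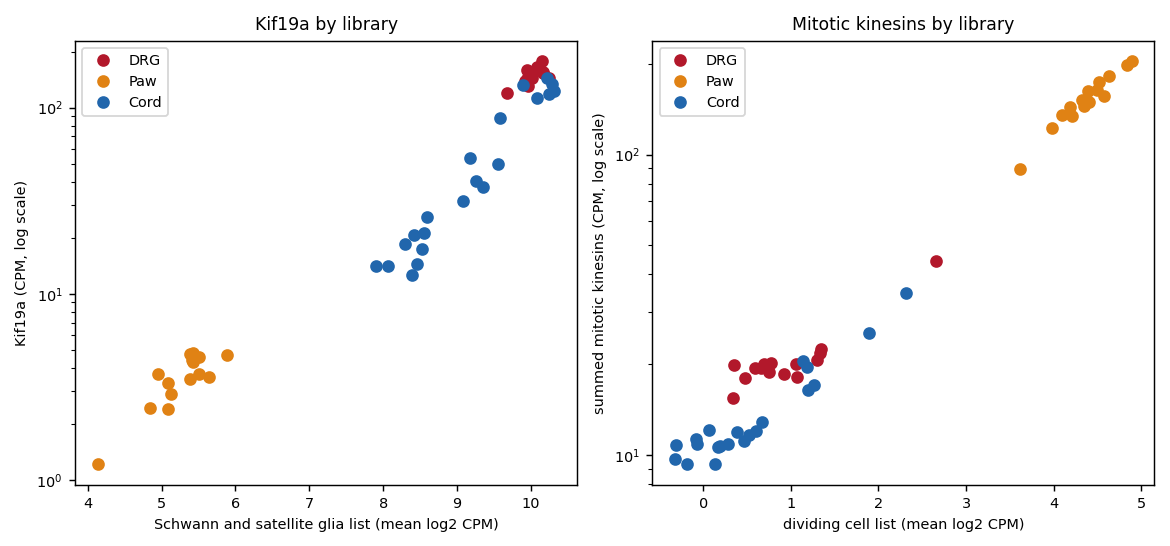
Left, CPM of Kif19a (log scale) against the mean log2 CPM of the Schwann and satellite glia list, and right, summed CPM of the mitotic kinesins (log scale) against the mean of the dividing cell list, in all 51 libraries by tissue. The highest cord libraries reach the DRG libraries in both measures on the left, and DRG has 1 library, PTX day 7 replicate 2, apart from the others on the right.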

How the data were processed

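Poly(A) RNA libraries with strand marking were sequenced as single reads, per the labels' protocols. The deposited values are raw read counts per gene symbol, 1 table per library; the submitters' processing notes name bcl2fastq, TopHat2, HTSeq and build mm9, with no versions. The strand setting of the counting is not given in the sources used here, so reads of overlapping genes on opposite strands cannot be told apart. Summary lines that name no gene were left out: reads outside genes came to 16.3 to 44.1 per 100 gene reads and reads with several alignments to 57 to 157. Reads with several alignments bear most on near-identical copies such as Dynlt1.

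The motors, their roles and all gene lists were chosen with earlier results of these data known. Counts were tested with edgeR 4.0.16 in R 4.3.3 (filterByExpr with a minimum count of 10 and total of 15, TMM scaling, robust quasi-likelihood fit) over all genes of a tissue, with BH adjustment at 0.05 over all genes tested. DRG and paw were fitted separately and, for differences of effects, together; the vehicle libraries of all tissues were fitted together for tissue, with cord as the mean of its day 1 and day 7 vehicle groups. DESeq2 1.42.0 was the alternative tool. The procedure was tested on simulated data with known changes. How many small changes it recovered is not given here, so a motor that did not pass may still have changed. Groups came from titles, so cord day 1 follows the library titles, while the series text gives the same days for all tissues. Values in every library are given for motors that passed, up to 6 a comparison; for the 2 with the smallest p where none passed against vehicle; for up to 4 of each role between DRG and paw; and for Kif19a, Kif11, Kif4 and the neuronal motors of paw, chosen after their values were seen. Where groups are said not to overlap, the share of all genes without overlap was not counted. Transcript lengths were matched for 98.9% to 99% of genes. List means are of log2 CPM with a prior count of 2.

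Within a tissue, same-numbered libraries of different groups did not deviate together: their median correlation was 0.1 in DRG, −0.04 in paw and 0.03 in cord. Whether same-numbered libraries of different tissues pair was not checked, and the tests between tissues treat them as unpaired. No 2 libraries of a group agreed within sampling noise (lowest chi-square per gene 5.48). The alternatives were DESeq2, RLE scaling, no low-count filter, a replicate block, only the groups compared, each replicate left out and, chosen after seeing the data, the length slope or the sensory neuron list mean of each library as a covariate, set A day 1 left out and cord vehicle day 7 alone.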

Additional observations from a re-analysis of the deposited data

Results flagged for a closer look

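For 5 of 52 motors the effect of PTX in cord set A differed between day 7 and day 1 by the test of the difference itself (edgeR, BH-adjusted over all genes). By the same test 8.76% of all 15815 genes passed. With 1 library left out, the count of motors ran from 0 to 10. On the log2 scale, the day 7 effect minus the day 1 effect was −4.17 for Kif13b, −2.62 for Kif26b, −1.38 for Kif1a, −1.08 for Kif5a and −0.9 for Kif3c. In each the effect was positive at day 1 and negative at day 7. The length slopes of the libraries moved with these values. The sensory neuron list also differed among the day 1 libraries, with means of 7.97, 6.53 and 7.25 log2 CPM in PTX and 1.67, 7.23 and 7.09 in vehicle. None of the 5 passed with the slope or with the list mean as a covariate, but both covariates also take up group differences. The part of either in the differences was not tested.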

How the results depend on the processing

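Tissue counts of motors stayed within 1.5 times of those reported under every alternative run. RLE scaling and the missing low-count filter changed no count past that either. Motors called with DESeq2, against 0 reported, were 2 in DRG at day 7, 1, 2 and 3 in paw at days 2, 7 and 22, 4 in cord set A at day 7 and, among PTX days, 1 in DRG and 3 in paw; for the difference of cord effects they were 8 against 5. With only the groups compared, cord set A gave 7 at day 7, 7 between the vehicle days and 0 for set B against set A. The length slope covariate left 0 between the vehicle days and 0 for the difference of effects, and the sensory neuron covariate left 0, 0 and, between sets, 0. The replicate block called 1 in DRG at day 7, Kif5b, and changed no other count past that range. Leaving out 1 replicate gave 0 to 4 in DRG at day 7, 0 to 1 in paw at day 22, 0 to 4 in cord at day 1, 4 to 12 between vehicle days, 0 to 10 for the difference of effects and 3 to 22 between sets. Some signs turned. Between sets, the sensory neuron covariate gave 0.21 for Kif21a and 0.02 for Kif16b. Leaving out 1 library, the fold changes of DRG over cord ran from −0.21 to 0.07 for Kif5a, −0.02 to 0.06 for Kif5c, −0.16 to 0.1 for Kif13a and −0.01 to 0.38 for Kif15, and that of cord over paw from −0.21 to 0.02 for Dynlt3. With cord vehicle day 7 alone, DRG over cord was −0.06 for Kif5c, 0.15 for Kif22 and 0.07 for Dynlt1a. The causes of these shifts were not tested, and the shares of all genes called under the alternatives are not given here. Dynlrb2 had too few counts to be tested for PTX in DRG, and Dynlrb2, Kif27 and Kif6 had too few in paw.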
